A study of Mus musculus with 6 samples.

Results

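The 9 genes described here encode receptors on the surface of platelets. They were taken by symbol, namely Gp1ba, Gp1bb, Gp5, Gp9, Itga2b, Itgb3, Gp6, Clec1b and P2rx1, and each matched 1 Ensembl identifier among the 46078 genes of the count tables. Their transcripts were measured by RNA sequencing of total RNA from mice, in 3 libraries labelled JMML, for juvenile myelomonocytic leukemia, a childhood blood cancer of monocytic and granulocytic cells, and 3 labelled wild type (WT). The labels give no tissue, age, strain, altered gene or treatment for either group. Whether replicates were separate animals is likewise not stated, so p-values measure only the spread between these 6 libraries. Totals ranged from 47096464 to 61656272 counts in WT and from 91976512 to 108395459 in JMML. An F closes the identifier of JMML replicates 1 and 2 and an M that of the remaining 4 libraries. This letter is thus partly confounded with the group, and its meaning is not stated. Where the letter serves as a covariate below, only JMML replicate 3 sets the difference from the 3 WT libraries. JMML replicate 3 and WT replicate 3 also share the leading part of their identifiers, which no other pair does, and what it marks is likewise not stated.

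Platelets are shed by megakaryocytes, large cells of the blood-forming tissues, and carry over their RNA. They stop bleeding by a relay of receptors. The complex of Gp1ba, Gp1bb, Gp9 and Gp5 catches von Willebrand factor on a damaged vessel wall, Gp6 and Clec1b start signals through Syk kinase after binding collagen and podoplanin, P2rx1 opens as a calcium channel when ATP binds, and the integrin of Itga2b and Itgb3 then binds fibrinogen and links platelets to each other. In bulk RNA, fewer cells of a type and less RNA per cell cannot be told apart.

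Of the 9 receptor genes, 8 were lower in JMML, 0 were higher and P2rx1 did not pass the test, by edgeR's quasi-likelihood test at an adjusted p under 0.05. Among all 18097 tested genes, 13.8% were lower, 12.4% were higher and 26.2% were called in either direction. The 8 lower genes stood at between 0.547% (Gp6) and 19.1% (Itgb3) of their WT mean. In the same 8 genes every JMML library lay below every WT library, an arrangement found in 24.6% of tested genes, while in 47.5% the groups did not overlap in either direction. The median log2 fold change (JMML minus WT) was −2.88 over the 9 genes and −0.02 over all tested genes. All 9 passed the filter on low counts. Gp6 passed through the WT libraries alone, so it had to differ and its call among the 8 adds no evidence.

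Stretches of DNA just before the start sites are shown for 5 of the genes as examples. Of these, 4 were lower in JMML and the remaining gene, P2rx1, did not pass the test. Gp1bb, Itga2b and Clec1b were also lower and were searched, but their stretches are not shown. RefSeq start sites (GRCm38.p6) were at hand for 8 of the 9 genes, Itgb3 being the exception, and the 250 bases before each were searched on both strands for the 6-letter cores of GATA factors (GATA preceded by A or T and followed by A or G) and of Ets factors (GGAAG preceded by A or C). Both families are known for their part in megakaryocyte gene control. Capitals mark a match, in either orientation, and each sequence runs 5′ to 3′ on the strand of the gene. Gp1ba at chr11:70638872-70639121, plus strand, holds 3 GATA matches and 1 Ets match. Gp5 at chr16:30310782-30311031, minus strand, has the same numbers of each. Gp9 at chr6:87777820-87778069, plus strand, has 1 Ets match and 0 GATA matches, Gp6 at chr7:4397745-4397994, minus strand, has 1 GATA match and 0 Ets matches, and P2rx1 at chr11:72998895-72999144, plus strand, has 2 GATA matches and 0 Ets matches.
Gp1ba: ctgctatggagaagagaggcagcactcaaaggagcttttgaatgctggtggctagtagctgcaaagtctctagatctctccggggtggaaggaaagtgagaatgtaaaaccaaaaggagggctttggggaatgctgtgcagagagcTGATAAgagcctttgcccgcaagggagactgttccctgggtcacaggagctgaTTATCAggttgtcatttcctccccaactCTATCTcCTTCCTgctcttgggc
Gp5: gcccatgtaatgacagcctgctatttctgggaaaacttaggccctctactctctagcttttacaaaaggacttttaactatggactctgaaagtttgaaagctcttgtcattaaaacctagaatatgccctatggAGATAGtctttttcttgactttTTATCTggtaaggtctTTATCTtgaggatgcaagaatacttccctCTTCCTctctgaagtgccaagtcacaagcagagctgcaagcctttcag
Gp9: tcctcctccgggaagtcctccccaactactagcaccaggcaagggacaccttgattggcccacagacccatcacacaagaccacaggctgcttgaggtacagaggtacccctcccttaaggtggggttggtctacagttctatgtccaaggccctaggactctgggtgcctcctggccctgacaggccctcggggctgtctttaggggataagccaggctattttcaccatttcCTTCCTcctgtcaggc
Gp6: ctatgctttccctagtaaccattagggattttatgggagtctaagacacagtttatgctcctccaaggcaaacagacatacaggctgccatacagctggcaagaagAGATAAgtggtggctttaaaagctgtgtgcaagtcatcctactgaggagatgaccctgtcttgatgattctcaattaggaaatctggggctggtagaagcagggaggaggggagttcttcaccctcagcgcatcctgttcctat
P2rx1: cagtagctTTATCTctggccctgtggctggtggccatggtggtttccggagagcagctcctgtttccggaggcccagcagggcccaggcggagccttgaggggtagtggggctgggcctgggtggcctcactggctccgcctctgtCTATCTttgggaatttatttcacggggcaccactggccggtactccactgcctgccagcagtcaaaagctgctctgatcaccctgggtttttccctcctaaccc

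A GATA core occurred before 6 of the 8 genes and an Ets core before 5, and both occurred before 3, namely Gp1ba, Gp1bb and Gp5. Of the genes not shown, Gp1bb had 1 match of each kind, Itga2b had 2 Ets and 0 GATA matches, and Clec1b had 1 GATA and 0 Ets matches. Over all 32851 RefSeq start sites searched in the same way, 26.5% had a GATA core, 39.2% an Ets core and 9.21% both. In Gp1ba the nearest matches to the start began 23 bases (GATA) and 16 bases (Ets) before it and were separated by a single base. In Gp9 the Ets match also began 16 bases before the start. P2rx1 carries GATA matches as do 5 of the 7 lower genes searched, at 242 and 104 bases before the start. A match is a run of letters and not evidence that a factor binds there.

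The von Willebrand factor receptor was lower in all 4 of its genes. Gp1ba, the chain that holds the binding site for von Willebrand factor (chromosome 11, 70639122 to 70642036, GRCm38), had 10.2, 9.68 and 22.8 scaled CPM in WT replicates 1, 2 and 3 and 0.781, 0.456 and 0.462 in the JMML replicates, where scaled CPM are CPM of the library total after TMM scaling. WT replicate 3 was the highest, and the lowest WT library was still far above the highest JMML library. Gp1ba fell by 4.65 on the log2 scale (SE 0.45, adjusted p = 0.00219), from a mean of 14.2 ± 7.46 to 0.566 ± 0.186 (SD, n = 3).

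Gp9, the small chain needed to bring the complex to the cell surface (chromosome 6, 87778072 to 87779768), had 11.97, 8.76 and 28.6 scaled CPM in WT and 1.403, 0.932 and 0.946 in JMML. The groups did not overlap, and the JMML libraries lay close together. Its log2 fold change was −3.91 (SE 0.49, adjusted p = 0.00355). Gp5, which joins the complex and is cut by thrombin (chromosome 16, 30307685 to 30310779), had 27.2, 18.4 and 48.7 scaled CPM in WT and 5.23, 3.37 and 4.43 in JMML. Again WT replicate 3 was highest and the groups did not overlap, with a log2 fold change of −2.86 (SE 0.38, adjusted p = 0.00392).

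Gp1bb, the chain bound to Gp1ba by disulfide bonds (chromosome 16, 18620317 to 18622403), had 8.999, 6.52 and 19.2 scaled CPM in WT and 1.26, 3.35 and 0.759 in JMML. JMML replicate 2 was the highest of its group, with 352 counts against 103 and 69 in replicates 1 and 3, yet stayed below every WT library. The log2 fold change was −2.69 (SE 0.63, adjusted p = 0.0215), and the call ended when JMML replicate 1 was left out (−2.47, adjusted p = 0.0606) or when WT replicate 3 was left out (−2.08, adjusted p = 0.0552). Leaving out JMML replicate 2 gave −3.504 (adjusted p = 0.0178). With the letter as a covariate the value was −3.93, set by JMML replicate 3 alone in its group. Exons of the neighbouring septin gene Sept5 cover 91.1% of the exonic bases of Gp1bb on the same strand, so reads of this gene pair may not be separable. Sept5 had 35.3, 34.1 and 51.2 scaled CPM in WT and 46.3, 50.9 and 62.3 in JMML and was not called (log2 fold change 0.40, SE 0.19, adjusted p = 0.161). Without WT replicate 3, Sept5 was called higher (0.66, adjusted p = 0.0478).

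**Figure D1:**
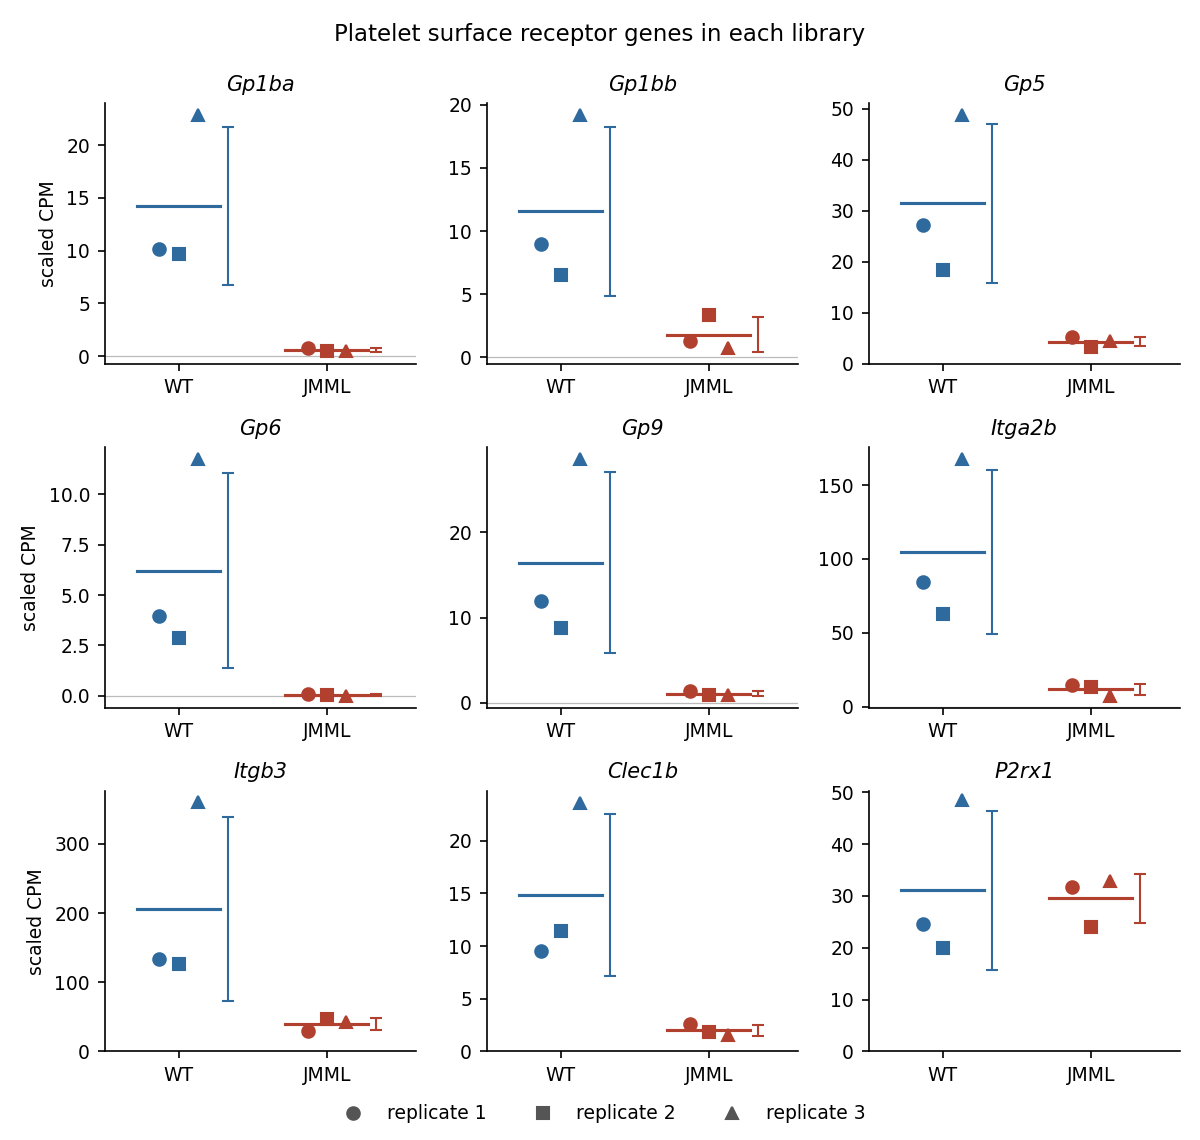
Scaled CPM (linear axes from 0, one panel per gene) of the 9 receptor genes in each WT and JMML library. Symbols mark the replicate, horizontal lines the group mean and bars ± 1 SD (n = 3); WT replicate 3 is the highest WT library in all 9 panels, and the groups overlap only for P2rx1.

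Both chains of the fibrinogen receptor were lower in JMML. Itga2b, the alpha chain CD41 and an early surface marker of megakaryocytes (chromosome 11, 102453297 to 102470122), had 84.1, 62.5 and 168 scaled CPM in WT and 14.4, 13.6 and 7.39 in JMML. JMML replicate 3 was the lowest library, and the groups did not overlap. Itga2b fell by 3.15 on the log2 scale (SE 0.43, adjusted p = 0.00422). Its log2 fold change was −3.82 with the letter as a covariate, where JMML replicate 3, its lowest library, alone sets the JMML level.

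Itgb3, the beta chain CD61 (chromosome 11, 104608000 to 104670476), had 133, 126 and 360 scaled CPM in WT and 29.9, 46.2 and 41.9 in JMML. JMML replicate 3, the lowest library for the alpha chain, was not the lowest for the beta chain. Itgb3 fell by 2.39 on the log2 scale (SE 0.43, adjusted p = 0.00911). The value was −1.68 without WT replicate 3 (adjusted p = 0.00712). With the identifier letter as a covariate it was −2.30, and in the 4 libraries with the letter M it was −2.26. The call ended in both, but a single JMML library faces the 3 WT libraries there. In the letter M libraries WT alone sets the spread. The beta chain is also known from osteoclasts, where it pairs with the integrin chain of Itgav. Of 7 osteoclast marker genes, 6 were higher in JMML and 0 lower, beside 12.4% higher and 13.8% lower among all tested genes. Their summed level was 411 to 594 scaled CPM in JMML and 130 to 314 in WT. Mmp9 had the highest level of the 7, at 227 ± 22.1 in JMML and 96.5 ± 59.6 in WT. It weighs most in these sums and was the 1 marker not called (adjusted p = 0.0514). No osteoclast marker was at 0 in all libraries, although Calcr had 0 counts in 2 WT libraries. Itgav itself had 44.9 ± 20.5 scaled CPM in WT and 43.3 ± 9.93 in JMML (log2 fold change −0.05, adjusted p = 0.919). The part of such cells in the Itgb3 values was not tested.

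The collagen receptor gene Gp6 was almost absent from JMML. It lies at chromosome 7, 4363965 to 4397744, and had 258, 150 and 683 counts in WT replicates 1, 2 and 3 and 6, 3 and 0 in JMML. These are 3.97, 2.87 and 11.7 scaled CPM in WT and 0.0732, 0.0285 and 0 in JMML. A count of 0 in JMML replicate 3 allows up to 3 counts, or 0.0330 scaled CPM, so this library was at least 87.1-fold below the lowest WT library and at least 188-fold below the WT mean, or 104-fold without WT replicate 3; these limits cover counting error alone. The fitted log2 fold change was −7.49 (SE 0.95, adjusted p = 0.00359), a value that depends at such counts on the offset the test adds. No JMML library reached the cutoff of the filter on low counts. Gp6 thus entered the test through WT alone and had to differ, so its adjusted p is not evidence of a difference.

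Clec1b, the podoplanin receptor, lies in a cluster of lectin genes (chromosome 6, 129397297 to 129409335). It had 9.51, 11.4 and 23.6 scaled CPM in WT and 2.61, 1.86 and 1.56 in JMML. The groups did not overlap, and the log2 fold change was −2.88 (SE 0.40, adjusted p = 0.00443). Clec9a, a lectin gene of dendritic cells that follows it on the same strand, shares 184 bases or 3.61% of the Clec1b exons and moved the other way, from 2.03, 2.84 and 1.77 scaled CPM in WT to 9.86, 10.3 and 10.6 in JMML (log2 fold change 2.21, SE 0.23, adjusted p = 0.00244). How reads in the shared bases were counted is not given in the sources used here.

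P2rx1, the ATP-gated channel (chromosome 11, 72999103 to 73015200), did not follow the other receptors. It had 24.6, 20.0 and 48.6 scaled CPM in WT and 31.7, 24.1 and 32.8 in JMML. The groups overlapped, the WT mean of 31.1 ± 15.4 and the JMML mean of 29.5 ± 4.76 were close, and the log2 fold change was −0.07 (95% interval −0.83 to 0.69, adjusted p = 0.884). That interval runs from 0.562 to 1.61 times the WT level, so a moderate change in either direction was not detectable. Within WT it shared the high value of replicate 3, at 2.179 times the mean of replicates 1 and 2, and without that library its log2 fold change was 0.45 (adjusted p = 0.179). P2rx1 is also known from neutrophils. Of 8 neutrophil marker genes, 3 were higher in JMML, 0 were lower and 5 were not called. Among all tested genes 12.4% were higher and 13.8% lower. The summed level of the neutrophil markers was 11972 to 22590 scaled CPM in JMML and 6703 to 13379 in WT, with none at 0. Their part in the P2rx1 values was not tested.

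**Figure D2:**
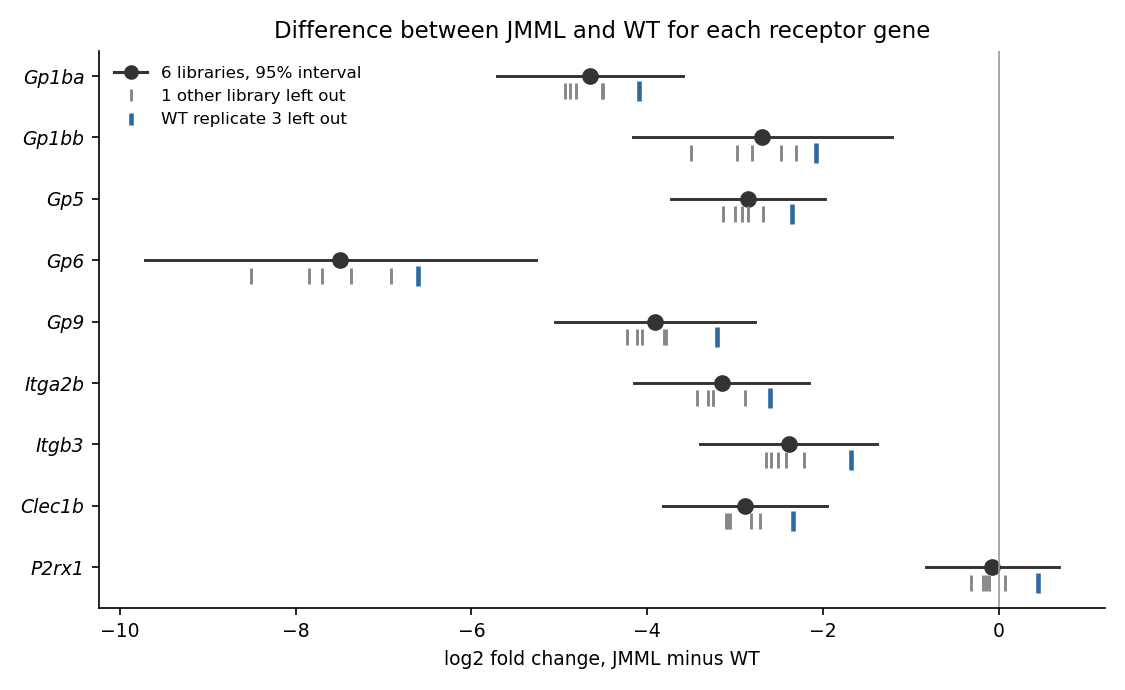
Log2 fold change (JMML minus WT, horizontal axis) of each receptor gene from the test on 6 libraries (points) with 95% intervals (lines), and the same value with 1 library left out (ticks below, WT replicate 3 in blue). The 8 lower genes stay below 0 in every such setting, and leaving out WT replicate 3 gives the smallest change for each of them.

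WT replicate 3 was the highest WT library for all 9 genes. Its level was 2.14 times (Gp5) to 3.43 times (Gp6) the mean of WT replicates 1 and 2 in the 8 lower genes. Between WT libraries the coefficient of variation ran from 49.6% to 78.1% in these 8, and between JMML libraries from 21.5% (Itgb3) to 109% (Gp6). Without WT replicate 3 the log2 fold changes were −4.10 for Gp1ba, −3.21 for Gp9, −2.36 for Gp5, −2.60 for Itga2b, −2.34 for Clec1b and −6.60 for Gp6, so each of the 8 genes fell less without this library. Of the 8 calls, 7 held in that setting and that of Gp1bb ended.

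Levels were compared between genes after division by exon length, as scaled CPM per kb, with all annotated exons of a gene merged. The order of genes and the size of ratios between them depend on these lengths. Which annotated transcripts were expressed was not examined. In WT the order of means was Itgb3 (35.0 ± 22.6 scaled CPM per kb), Itga2b (19.2 ± 10.2), Gp9 (18.7 ± 12.1), Gp5 (14.3 ± 7.10), P2rx1 (11.8 ± 5.85), Gp1bb (5.54 ± 3.22), Gp1ba (5.24 ± 2.74), Clec1b (2.91 ± 1.498) and Gp6 (1.05 ± 0.820). The ranges of all 8 neighbouring pairs in this order overlapped, while WT replicate 3 was high for every gene. Within libraries, 6 of the 8 steps had the same order in all 3 WT libraries, the exceptions being Itga2b over Gp9 and Gp1bb over Gp1ba. These orders were not tested. In JMML P2rx1 came first (11.3 ± 1.81), followed by Itgb3 (6.67 ± 1.43), Itga2b (2.16 ± 0.703), Gp5 (1.98 ± 0.426), Gp9 (1.24 ± 0.304), Gp1bb (0.857 ± 0.658), Clec1b (0.394 ± 0.106), Gp1ba (0.208 ± 0.0683) and Gp6 (0.00575 ± 0.00625). Here the range of P2rx1 (9.18 to 12.5) lay above that of Itgb3 (5.07 to 7.84), and Itgb3 above Itga2b (1.36 to 2.64). Clec1b, Gp1ba and Gp6 were likewise separate from each other, and the remaining 4 neighbouring pairs overlapped in range. Within libraries, all 3 JMML libraries gave the same order in 6 of the 8 steps, with Itga2b over Gp5 and Gp9 over Gp1bb as exceptions.

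Ratios within a library do not depend on its scaling. The level of Gp1ba relative to Gp9, partners in 1 complex, was 0.276, 0.358 and 0.259 in WT and 0.180, 0.159 and 0.158 in JMML, lower in every JMML library. Gp5 relative to Gp9 was 0.910, 0.844 and 0.684 in WT and 1.496, 1.45 and 1.88 in JMML, higher in every JMML library. Gp1bb relative to Gp9 was 0.283 to 0.317 in WT and 0.378, 1.52 and 0.339 in JMML, where replicate 2 stood apart. Since Sept5 exons cover 91.1% of the Gp1bb exonic bases, this ratio depends on how shared reads were counted. The level of Gp1bb per kb has the same limit.

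For the integrin, Itgb3 relative to Itga2b was 1.46, 1.86 and 1.98 in WT and 1.92, 3.14 and 5.24 in JMML, with an overlap between groups. Clec1b relative to Itga2b also overlapped, at 0.121 to 0.195 in WT and 0.146 to 0.226 in JMML. P2rx1 relative to Itga2b was 0.607, 0.666 and 0.603 in WT and 4.58, 3.68 and 9.23 in JMML. In WT this ratio was nearly constant although both genes varied over 2-fold between libraries. In an exact two-sided permutation test of the log2 ratios, 4 of the 6 ratios gave p = 0.10, the smallest that 3 against 3 libraries allow, and adjusted over the 6 ratios these became 0.15. The Itgb3 and Clec1b ratios gave p = 0.20 and p = 0.50 in the same exact test (adjusted p = 0.24 and 0.50).

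**Figure D3:**
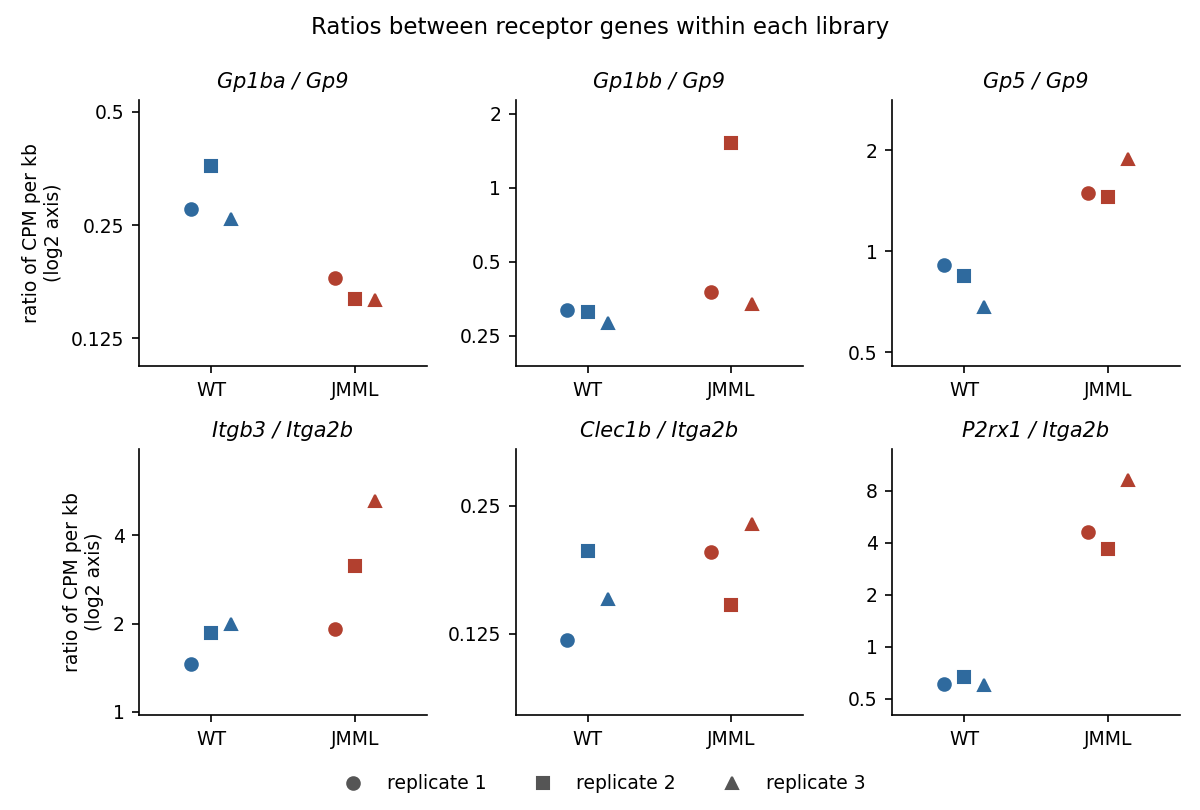
Ratio of scaled CPM per kb between 2 receptor genes in each library (log2 axis, one panel per ratio, symbols for replicates). JMML libraries lie below WT for Gp1ba over Gp9 and above WT for Gp5 over Gp9, Gp1bb over Gp9 and P2rx1 over Itga2b; the other 2 ratios overlap.

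Other receptor genes of platelets fell in part. Of 26 such genes, 25 were tested, 14 were lower in JMML, 2 were higher and 9 were not called (median log2 fold change −0.78). The shares over all tested genes were 13.8% lower and 12.4% higher. Mpig6b, an inhibitory receptor that restrains Gp6 and Clec1b, fell from 7.34 ± 5.42 to 0.103 ± 0.0341 scaled CPM (log2 fold change −6.12, SE 0.65, adjusted p = 0.00255). With 9, 14 and 6 counts in JMML, Mpig6b, like Gp6, passed the filter on low counts through WT alone, so it had to differ. Treml1, a receptor of platelet granule membranes, and F2rl2, a thrombin receptor, had log2 fold changes of −4.85 and −4.14. Without WT replicate 3 the values were −5.29 for Mpig6b, −3.93 for Treml1 and −3.32 for F2rl2, all still called. Itga2, the alpha chain of the integrin that binds collagen beside Gp6, had a log2 fold change of −2.04. F11r, a junctional adhesion molecule (log2 fold change 1.77), and Ceacam1, an inhibitory receptor (0.60), made up the 2 higher genes and are named because their count is small. The call of F11r ended when 1 of 4 libraries was left out, namely JMML replicate 1 (then 1.71), JMML replicate 2 (1.55), WT replicate 1 (1.65) or WT replicate 2 (1.49). That of Ceacam1 ended when JMML replicate 3 (0.55), WT replicate 1 (0.57) or WT replicate 2 (0.55) was left out, and with library totals alone as scaling (0.42). With the letter as a covariate neither was called (1.02 for F11r and 0.72 for Ceacam1), and with the replicate block F11r was not (1.86).

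Genes of proteins stored in platelet granules or shaping the platelet were lower in part. Of 15 genes, 8 were lower, 1 was higher and 6 were not called (median −1.39). Beside this, 13.8% of all tested genes were lower and 12.4% higher. Ppbp, a platelet chemokine, had 94.7, 83.6 and 328 scaled CPM in WT and 2.90, 2.00 and 0.374 in JMML, with WT replicate 3 again the highest. Log2 fold changes were −6.59 for Ppbp, −6.15 for Tubb1, the platelet tubulin, −6.22 for Alox12, a platelet lipoxygenase, and −3.82 for Pf4, a chemokine of the alpha granule. Srgn, the core protein of granule proteoglycans and also abundant in myeloid cells, was the 1 higher gene (0.77), and it was not called with the letter as a covariate (0.67). Without WT replicate 3 the values were −5.63 for Ppbp, −5.21 for Tubb1, −5.48 for Alox12 and −3.13 for Pf4. With the letter as a covariate, where only JMML replicate 3 sets the difference, they were −8.81, −7.02, −8.34 and −4.78 in the same order. These 4 genes were called without WT replicate 3. For Alox12, 2 JMML libraries and all 3 WT libraries reached the cutoff of the filter on low counts. JMML levels of Ppbp, Tubb1 and Alox12 were 1.04%, 1.405% and 1.34% of WT and that of Pf4 7.07%, beside 0.547% for Gp6 and 19.1% for Itgb3.

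Among 13 genes of receptor ligands, 9 were tested, of which 1 was lower, 0 were higher and 8 were not called (median 0.02). Over all tested genes 13.8% were lower and 12.4% higher, so 1 lower ligand of 9 is near that share. Vwf, which encodes von Willebrand factor in megakaryocytes and vessel walls, fell by 3.71 on the log2 scale (SE 0.48, adjusted p = 0.00374), from 93.5, 71.4 and 202 scaled CPM in WT to 11.3, 11.5 and 5.32 in JMML. The value was −3.10 without WT replicate 3, still called. With the letter as a covariate it was −4.52, set by JMML replicate 3 alone in its group. Endothelial markers were lower alongside, with 5 of 8 called lower and 0 higher, and a summed level of 36.7 to 68.4 scaled CPM in JMML and 195 to 371 in WT, none at 0. Stab2 and Kdr, receptors of vessel wall cells, had log2 fold changes of −3.95 and −3.31, or −4.99 and −4.85 with the letter as a covariate. The part of vessel cells in the Vwf values was not tested. Pdpn, the ligand of Clec1b, was at 0.0919 ± 0.0868 in WT and 0.204 ± 0.154 in JMML and was not called (log2 fold change 1.16, adjusted p = 0.463). It had only 0, 9 and 6 counts in WT and 28, 4 and 21 in JMML. Only 1 WT and 2 JMML libraries reached the cutoff of the filter on low counts, so the lack of a call says little. The collagen genes of the list and the fibronectin gene gave no call in this test. Over the alternatives, the 1 lower ligand became 3 with the letter as a covariate and in the letter M libraries, and 1 ligand was higher by DESeq2 and when JMML replicate 3 or WT replicate 3 was left out.

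Of 24 signalling genes that act below these receptors, 7 were higher, 2 were lower and 15 were not called (median 0.25). Among all tested genes, 12.4% were higher, 13.8% were lower and 26.2% were called in either direction. Fcer1g, the signalling chain without which Gp6 does not reach the surface, rose from 107 ± 12.9 to 195 ± 16.9 scaled CPM (log2 fold change 0.87, SE 0.13, adjusted p = 0.00529), while Gp6 itself was nearly absent. Lyn, a Src family kinase, and Vav1, an exchange factor, rose with log2 fold changes of 0.89 and 0.75. Syk was at 302 ± 74.1 in WT and 319 ± 7.49 in JMML without a call (adjusted p = 0.767), and Lat, an adaptor also used by T cells, had a log2 fold change of −1.85. Apbb1ip, an adaptor for integrin activation, was the other lower gene (−0.75), and its call ended when any library but WT replicate 3 was left out (−0.84 to −0.46). These genes are also used by myeloid cells, and the neutrophil markers are given above; their part in these values was not tested. The 7 higher became 3 when either of WT replicates 1 and 2 was left out, and 4 when either of JMML replicates 2 and 3 was. With library totals alone as scaling 4 were higher and 4 lower, and with the letter as a covariate 4 were higher and 0 lower.

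**Figure D4:**
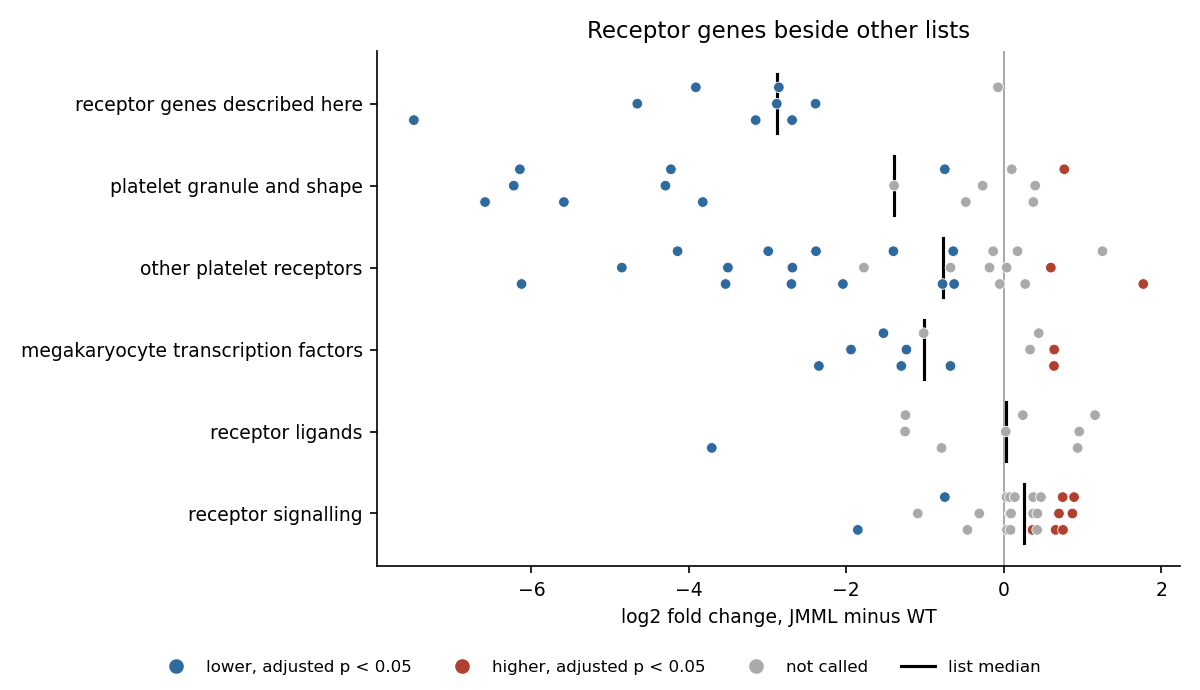
Log2 fold change (JMML minus WT, horizontal axis) of every tested gene in 6 lists, with blue and red for genes called lower and higher at an adjusted p under 0.05, grey for genes not called and a black line for the list median. The receptor genes have the lowest median (−2.88) and the signalling genes the highest (0.25).

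Of 12 megakaryocyte transcription factor genes, 11 were in the tables and tested, 6 were lower, 2 were higher and 3 were not called (median −1.02). The shares over all tested genes were 13.8% lower and 12.4% higher. Zfpm1, the GATA cofactor, had 172, 106 and 119 scaled CPM in WT and 27.9, 19.5 and 30.7 in JMML and fell by 2.35 on the log2 scale (SE 0.24, adjusted p = 0.00241). Log2 fold changes were −1.94 for Tal1, −1.53 for Gata1 and −0.68 for Runx1, all called lower. The Ets factor Fli1 and the serum response factor Srf were the 2 higher genes (both 0.64). With library totals alone as scaling neither was called (both 0.46), nor was either with the letter as a covariate (0.66 for Fli1 and 0.78 for Srf), and Srf was not with the replicate block (0.65). The call of Fli1 also ended when JMML replicate 2 (0.65), JMML replicate 3 (0.65), WT replicate 1 (0.55) or WT replicate 2 (0.59) was left out, and that of Srf when JMML replicate 2 (0.65), JMML replicate 3 (0.58), WT replicate 2 (0.51) or WT replicate 3 (0.70) was. Over the 11 tested genes WT replicate 3 stood at 0.710 to 1.43 times the mean of WT replicates 1 and 2, beside at least 2.14 times for the receptor genes. It was at 0.857, 0.771, 0.965 and 0.978 times for Zfpm1, Tal1, Gata1 and Runx1, and it was the highest WT library for Fli1 (1.43 times) and Ets1 (1.3996 times). The excess was not confined to the receptor genes. It was 1.96 (Col4a2) to 3.53 times (Col1a2) in the collagen genes of the ligand list, but 0.715 (Ermap) to 1.10 times (Slc4a1) in the erythroid markers. Red cell precursors use Gata1, Tal1 and Zfpm1 as well, and of 8 erythroid markers 6 were lower and 0 higher, with a summed level of 85.6 to 533 scaled CPM in JMML and 1367 to 2359 in WT, none at 0. Their part in these values was not tested. The 6 lower became 1 with the identifier letter as a covariate, under which Tal1, Gata1 and Runx1 lost their calls, and 3 when either of WT replicates 1 and 2 was left out. Gata1 also lost its call when WT replicate 1 was left out (−1.36, adjusted p = 0.0586), and Runx1 when WT replicate 2 (−0.65, adjusted p = 0.061) or JMML replicate 3 (−0.61, adjusted p = 0.0504) was.

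Itga2b is also known from stem and progenitor cells and from mast cells. Among all tested genes 13.8% were lower and 12.4% higher. Of 8 stem and progenitor markers 6 were lower and 0 higher, with a summed level of 52.1 to 74.1 scaled CPM in JMML and 101 to 113 in WT. Meis1 among them had a log2 fold change of −1.48. Of 7 mast cell and basophil markers 4 were lower, 0 higher and 3 not called, with a summed level of 216 to 248 in JMML and 313 to 396 in WT. Kit, the marker of highest level, weighs most in these sums, at 113 ± 6.20 in JMML and 190 ± 33.5 in WT. Hdc, the next highest, was not called, at 72.5 ± 11.7 in JMML and 61.5 ± 3.06 in WT. No marker of either list was at 0 in all libraries, and their part in the Itga2b values was not tested.

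The genes nearest in profile to the mean of the 9 receptor genes were sought among 12610 protein-coding genes, by the Euclidean distance over the 6 libraries between centred log2(scaled CPM + 0.5) values. They were Cavin1, a caveolar coat protein (distance 0.267), Adcy5, an adenylyl cyclase (0.347), Tgfb1i1 (0.361), Kalrn, a guanine nucleotide exchange factor (0.382), Ripor3 (0.399) and Mylk, the myosin light chain kinase (0.469). Among the receptor genes Clec1b (0.468) and Gp5 (0.511) were closest to that mean and P2rx1 (3.21) the farthest. Cavin1 had 12.9, 11.1 and 27.3 scaled CPM in WT and 3.09, 2.63 and 2.13 in JMML, with WT replicate 3 highest as in the receptors. The 6 genes were picked for this likeness in the same 6 libraries, so it is not separate evidence. The mean includes P2rx1, so a distance to it is not a distance to the 8 lower genes alone. For each of Adcy5 and Ripor3, 2 JMML libraries and all 3 WT libraries reached the cutoff of the filter on low counts.

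By position, 4 of the 9 genes lie on chromosome 11, namely Gp1ba, P2rx1, Itga2b and Itgb3. Gp1ba and P2rx1 are 2.36 Mb apart and Itga2b and Itgb3 2.14 Mb apart. Gp1bb and Gp5 share chromosome 16 at a distance of 11.7 Mb, and Gp9 and Clec1b share chromosome 6 at 41.6 Mb. Of the closest pair of genes, both fell, whereas of the next closest Gp1ba fell and P2rx1 did not pass the test.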

How the data were processed

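The authors deposited raw counts per Ensembl gene for 6 mouse libraries, 3 JMML and 3 WT, made with a stranded total RNA kit per the labels' protocols. Per the submitters' processing notes the build was GRCm38 and STAR 2.5.3a and StringTie 1.3.3b were among the tools, with no role given. The sources used here do not give the counting tool, the strand setting or how reads in overlapping genes were treated. Symbols, positions and merged exon lengths came from GENCODE vM21, which matched 45229 of 46078 identifiers (98.2%).

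The test was run in R 4.3.3 with edgeR 4.0.16 (filterByExpr by group, TMM scaling, quasi-likelihood F test, Benjamini-Hochberg adjustment over 18097 genes, threshold 0.05), checked on simulated data. The SE of a log2 fold change was taken as its size over the root of F. One count was worth 0.00923 to 0.0212 CPM before scaling. Alternatives were other scalings, DESeq2 1.42.0, limma-voom (limma 3.58.1), other filters, thinning to equal totals, a replicate block, the identifier letter and leaving out each library. Named genes were the 9 receptors, the 4 genes with the smallest p in each list plus direct partners, the 2 genes of highest level in each marker list, and the 6 nearest profiles; those without a bearing on the receptors are not printed. One gene that this rule names is not reported here. Calcr, Sept5, Clec9a, F11r, Ceacam1, Srgn, Apbb1ip, Fli1, Srf and Ets1 were named after their values were seen. The receptor genes and all lists were chosen with earlier results of these data known.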

Additional observations from a re-analysis of the deposited data

How the results depend on the processing

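Of the 9 receptor genes, 7 or 8 were lower and 0 higher in each of the 16 alternatives run, and the 8 lower genes kept their direction in all of them. The counts over all genes moved more. They were 1358 higher and 1451 lower with the replicate block, 969 and 1250 with the identifier letter as a covariate, and 1012 and 1298 in the 4 libraries with the letter M, of which 1 is JMML. With library totals alone as scaling 1280 were higher and 3460 lower (27.0% of calls higher, against 47.4% with TMM). That scaling moved all log2 fold changes by a median of −0.18, which is less than the change of any of the 8 genes. With 1 library left out, 1050 to 1955 were higher and 1153 to 2048 lower, and 7 or 8 receptor genes lower. The replicate numbers were not taken as pairs. Same-numbered deviations correlated at −0.20, 0.05 and −0.14, the last for the libraries that share the start of their identifiers. With 3 libraries per group, such correlations cannot show whether libraries share an origin. With the block, Gp1bb lost its call (−2.80, adjusted p = 0.0668) and 7 receptor genes were lower, and Adcy5 lost its call (−4.59). The log2 fold change of P2rx1 had no stable sign, at 0.0129 in limma-voom, 0.0022 with no filter on counts, 0.0234 under the block, 0.0796 with the letter, 0.116 with the letter M only and −0.32 to 0.45 with 1 library left out. Itgav changed sign as well (0.0255 in limma-voom, 0.0315 with no filter, 0.0259 under the block and −0.233 to 0.427 with 1 library left out), as did Syk (−0.10 with library totals alone and −0.0321 to 0.339 with 1 library left out). Lat lost its call with the letter (−1.77). Of 590 values for the other named genes under the alternatives, 535 kept their direction and call, 46 lost the call, 1 gained one and 8 turned direction. Over all alternatives 10 to 16 of the other platelet receptors were lower and 0 to 3 higher, 7 to 9 granule and shape genes were lower and 0 or 1 higher, and 0 to 4 signalling genes were lower and 3 to 10 higher. Gp6 was at −11.87 with the letter and −11.68 in the letter M libraries, where its only JMML library has 0 counts. Low counts limit Gp6, Pdpn and, in JMML, Gp1ba.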
